A study of Homo sapiens with 18 samples.

Results

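The genes described here make serine and asparagine, run the mitochondrial one-carbon steps that use serine, and bring amino acids into the cell. They are ASNS, PHGDH, PSAT1, PSPH, SHMT2, MTHFD2, SLC7A5, SLC3A2, SLC7A11 and SLC1A5. These 10 genes were chosen by name, with earlier results of these data known. All 10 were found in each of the 3 tables, which held 17561 genes in all, 16001 of them for BL-41, 15365 for Namalwa and 16787 for Jiyoye. They lie on 9 chromosomes. BL-41, Namalwa and Jiyoye are established Burkitt lymphoma lines, a B cell tumour in which MYC is deregulated, and the last pair carries Epstein-Barr virus. Cells of each line, grown in glutamine-supplemented RPMI1640 with serum, received a lentivirus with a TagRFP marker that codes for a short hairpin RNA (shRNA) against the transcription factor FOXO3, or the same vector with a scrambled shRNA. Transduced cells were sorted on day 4, and oligo-dT selected messenger RNA was sequenced from 3 libraries in each of the 6 groups, 18 in all. The labels do not say how many FOXO3 hairpins were used or whether the 3 libraries of a group came from separate cultures, so p-values reflect the spread among these libraries alone, and that spread may be technical.

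Serine is made from a glycolytic intermediate by PHGDH, PSAT1 and PSPH in turn. SHMT2 then splits serine to glycine in mitochondria and passes a one-carbon unit to folate, and MTHFD2 oxidizes that unit for later use in nucleotide synthesis. ASNS makes asparagine from aspartate and glutamine. SLC7A5 imports large neutral amino acids such as leucine as a heterodimer with the heavy chain SLC3A2. SLC7A11 pairs with the same heavy chain and imports cystine in exchange for glutamate, and SLC1A5 carries glutamine and other small neutral amino acids. When amino acids are scarce, the kinase GCN2 (EIF2AK4) signals through the transcription factor ATF4, which is known to induce most of these genes, and MYC is known to raise several of them in proliferating cells.

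Each line has 1 table with 1 normalized value per arm, so no SD between libraries is given. The values carry DESeq2's moderation of fold changes towards 0 and are not plain group means. Summed over all genes they came to between 17065800 and 18459700 per arm. Fold changes, on the log2 scale, set FOXO3 shRNA over the scrambled control, and a gene was called where the authors' DESeq2 test gave an adjusted p under 0.05. Errors are standard errors (SE) recovered from the fold change and p. FOXO3 itself was 945 with scrambled and 545 with FOXO3 shRNA in BL-41, and 851 and 398 in Namalwa (DESeq2 adjusted p = 3.15e-07 and 2.49e-09) in the authors' deposited table. In Jiyoye FOXO3 went from 471 to 384 in the authors' deposited table and was not called (log2 fold change -0.30, SE 0.15, adjusted p = 0.187, DESeq2), so the label of the FOXO3 shRNA libraries has no such check in that line. B cell markers were present in every line, with all 6 listed markers measured and a summed value between 11471 and 55804 per arm. MS4A1 was low in Namalwa, at 124 and 150 in the authors' deposited table.

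Promoter sequences were matched in RefSeq (GRCh38.p14) for 7 of the 10 genes, in 12 windows of 300 bases around annotated starts. No window was found for PSPH, SHMT2 and SLC7A11. The core of the element bound by ATF4 together with a C/EBP factor was searched on both strands as TGATGNAA, and 3 of the 12 windows held it, against 3.62% of all 35116 windows. Some genes have several windows, and those of ASNS overlap, so windows are not independent. By gene, 3 of the 7 held it, against 4.46% of all 27305 genes with a window. The stretches with these matches are shown because ASNS was the gene called in every line. Capitals mark the match, and each stretch reads 5′ to 3′ on the strand of the gene. The ASNS stretch lies at chr7:97872458-97872487 on the minus strand, where the match begins 68 bases before the RefSeq start. In the GENCODE annotation this stretch also lies in the 5′ UTR of 3 ASNS transcripts that start further upstream. That of SLC3A2 lies at chr11:62881725-62881748 on the plus strand, just after the start, with the match on the opposite strand, and overlaps exons of 7 annotated SLC3A2 transcripts. That of SLC1A5 lies at chr19:46784893-46784922 on the minus strand, before an internal start of a shorter transcript and inside the gene as annotated.
ASNS: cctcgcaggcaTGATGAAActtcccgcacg
SLC3A2: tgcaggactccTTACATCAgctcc
SLC1A5: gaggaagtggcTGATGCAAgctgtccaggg

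The transporter partners SLC7A5 and SLC3A2 are shown side by side because they differed in whether they were called. An E-box, CACGTG, a motif that MYC and related factors can bind, was found in 2 of the 12 windows, those of SLC7A5 and of SLC1A5, against 7.26% of all windows. In the SLC7A5 stretch (chr16:87869508-87869657, minus strand) capitals mark this E-box. The SLC3A2 stretch (chr11:62881579-62881698, plus strand) lies just before the same SLC3A2 start inside the gene. Capitals there mark TGACNNNGC, the core of the antioxidant response element. It was held on either strand by 4 of the 12 windows (MTHFD2, SLC7A5, SLC3A2 and SLC1A5), against 13.3% of all windows. The SLC7A5 match to this core begins 2 bases before the start and runs past the printed stretch, so it is not marked. A forkhead motif, GTAAACA, was found in 1 of the 12 windows, that of the shorter SLC1A5 transcript, against 3.42% of all windows. By gene, 2 of 7 held the E-box, 4 the antioxidant core and 1 the forkhead motif. The shares of all genes with a window were 8.77%, 16.1% and 4.19%. None of these matches overlapped another.
SLC7A5: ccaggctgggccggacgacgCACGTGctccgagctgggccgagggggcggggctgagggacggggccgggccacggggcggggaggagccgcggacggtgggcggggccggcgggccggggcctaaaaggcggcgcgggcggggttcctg
SLC3A2: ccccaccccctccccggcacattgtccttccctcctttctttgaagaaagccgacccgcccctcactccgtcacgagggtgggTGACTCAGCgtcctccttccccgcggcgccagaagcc

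Most of these genes were lower with FOXO3 shRNA in BL-41, a part of them in Jiyoye and 1 in Namalwa, and none was called higher. In BL-41, 7 of the 10 fell and 0 rose (0 at an unadjusted p under 0.05), where 14.2% of all genes tested fell and 14.5% rose by the authors' DESeq2 test. In Jiyoye 5 fell and 0 rose (0 at an unadjusted p under 0.05), against 8.70% and 8.69% of all genes by DESeq2. In Namalwa 1 fell and 0 rose (0 at an unadjusted p under 0.05), against 3.81% and 2.60% by DESeq2. Since all 10 genes had a mean above 100, the share of such genes that fell is the closer background, at 20.7% in BL-41, 12.8% in Jiyoye and 5.76% in Namalwa. The median log2 fold change of the 10 genes was -0.51 in BL-41, -0.30 in Jiyoye and 0.03 in Namalwa, beside medians over all genes of 0.02, 0.01 and -0.00. All 10 fold changes were below 0 in BL-41, 7 in Jiyoye and 4 in Namalwa. The summed values of the 10 genes went from 0.616% to 0.384% of the BL-41 table, from 0.194% to 0.160% in Jiyoye and from 0.355% to 0.345% in Namalwa.

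**Figure D1:**
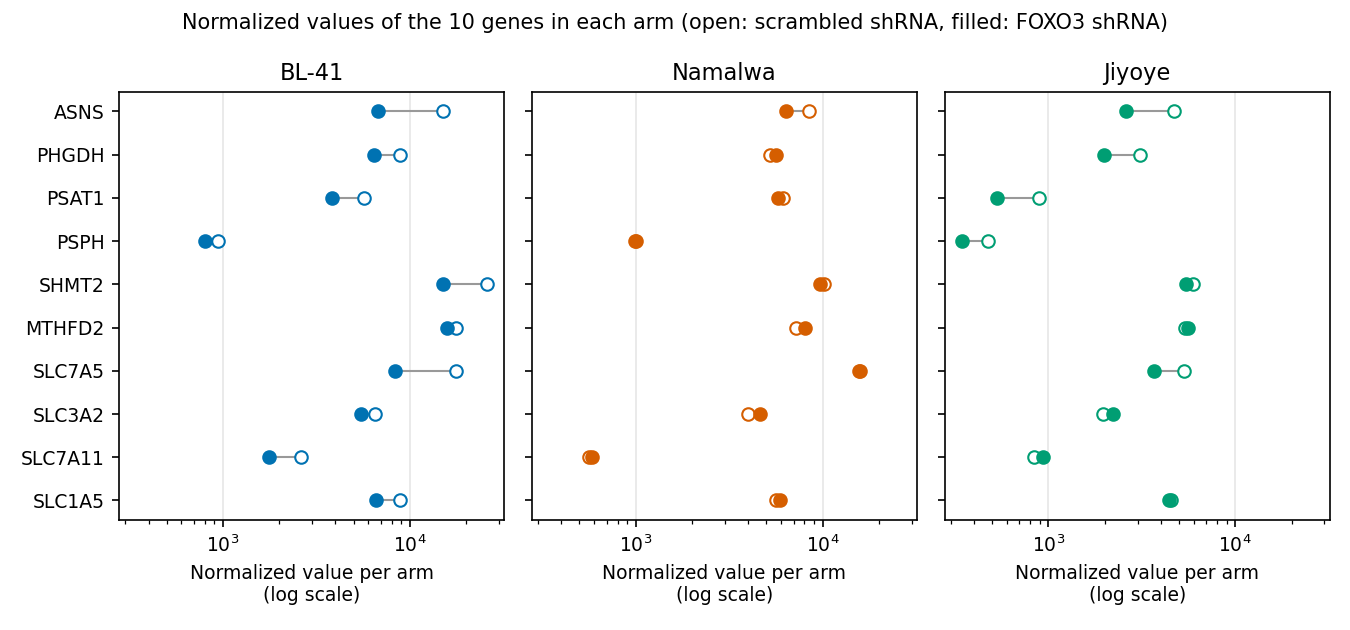
Normalized value of each of the 10 genes (x axis, log scale) with scrambled shRNA (open) and FOXO3 shRNA (filled) in the 3 lines, 1 value per arm as the authors deposited it. In BL-41 every filled point lies to the left of its open point, and SLC7A5 in Namalwa has nearly the same value in both arms (15812 and 15645).

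Some markers of other cells and of cell state were also called in BL-41 and in Jiyoye. Of all genes, 14.2% fell and 14.5% rose in BL-41, and 8.70% and 8.69% in Jiyoye. In BL-41 3 of 5 myeloid markers rose, all at low values (LYZ 37.9 to 107, CD14 5.25 to 26.7, CD68 36.8 to 69.5). The summed value of the 5 went from 86.4 to 215. There 2 of 6 B cell markers fell, where 20.7% of genes at a mean of 100 or more fell, and the sum of the 6 went from 55804 to 47178. Among markers of the Burkitt or germinal centre state in BL-41, 2 of 3 fell, with sums of 22353 and 13768. The myeloid sums were 57.6 and 64.9 in Namalwa (0 called, also 0 in each direction at an unadjusted p under 0.05, DESeq2) and 143 and 187 in Jiyoye (1 of 4 measured rose). In BL-41 the 4 T cell markers summed to 37.1 and 36.7, most of it from CD3E (32.8 and 33.5), while CD2 was below 1 in both arms. In Jiyoye 2 of 6 B cell markers rose, CD79A (0.36) and CD79B (0.53), the latter of which fell in BL-41 (-0.84), in the authors' deposited table (DESeq2 calls), while the B cell sum was 12168 and 11471. The 3 germinal centre markers there summed to 8814 and 6690 and the 4 T cell markers to 50.4 and 79.7, with 0 of either called (1 germinal centre marker falling and 1 rising, and 1 T cell marker rising, at an unadjusted p under 0.05, DESeq2). KRT8, an epithelial keratin, was high in Jiyoye and fell from 2978 to 1823 in the authors' deposited table (log2 fold change -0.71, adjusted p = 0.00108, DESeq2). EPCAM, an epithelial marker of the same list, was 1.76 and 1.91 there. In bulk RNA fewer cells of a state and less RNA per cell cannot be told apart, and the part of any of these markers in the changes of the 10 genes was not tested.

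Asparagine synthetase, ASNS, on chromosome 7 from 97851677 to 97928441 (GRCh38.p14), was the gene called in all 3 lines. Its value in the authors' deposited table went from 14986 with scrambled to 6764 with FOXO3 shRNA in BL-41, a change of -54.9%. In the table of Jiyoye that the authors deposited it went from 4700 to 2609, a change of -44.5%, and in that of Namalwa from 8446 to 6380, a change of -24.5%. The FOXO3 shRNA arm was thus the lower one in every line. On the log2 scale ASNS fell by 1.15 in BL-41 (SE 0.15, adjusted p = 8.33e-13, DESeq2), the lowest fold change among the 10 genes in any line. It fell by 0.85 in Jiyoye (SE 0.17, adjusted p = 1.58e-05, DESeq2) and by 0.40 in Namalwa (SE 0.12, adjusted p = 0.0241, DESeq2).

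Of the 3 enzymes of serine synthesis, 2 fell in BL-41, 3 in Jiyoye and 0 in Namalwa (0 at an unadjusted p under 0.05, DESeq2). Among all genes at a mean of 100 or more, 20.7%, 12.8% and 5.76% fell in these lines. PHGDH, the first enzyme of the route (chromosome 1 from 119711934 to 119744215), went from 8873 to 6444 in BL-41 and from 3100 to 1989 in Jiyoye in the authors' deposited table. In the deposited table of Namalwa the order of the arms was the other way, 5252 with scrambled and 5649 with FOXO3 shRNA. PHGDH fell by 0.46 in BL-41 (SE 0.12, adjusted p = 0.00145, DESeq2) and by 0.64 in Jiyoye (SE 0.18, adjusted p = 0.00345, DESeq2). In Namalwa its log2 fold change was 0.11 and was not called, with a 95% interval from -0.06 to 0.27.

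PSAT1, the aminotransferase of the second step (chromosome 9 from 78297125 to 78330093), went from 5688 to 3846 in BL-41 and from 887 to 529 in Jiyoye in the authors' deposited table. In the deposited table of Namalwa it was 6179 and 5800. PSAT1 fell by 0.56 in BL-41 (SE 0.14, adjusted p = 0.000774, DESeq2) and by 0.75 in Jiyoye (SE 0.19, adjusted p = 0.000898, DESeq2), and had a log2 fold change of -0.09 (SE 0.18) in Namalwa, which was not called. PSPH, the phosphatase that releases serine (chromosome 7 from 56011064 to 56051444), was the least abundant of the 3 enzymes per length in every arm. It went from 477 to 346 in Jiyoye in the authors' deposited table and fell by 0.47 (SE 0.14, adjusted p = 0.0109, DESeq2). PSPH was 943 and 798 in BL-41 and 998 and 1005 in Namalwa in the authors' deposited table, with log2 fold changes of -0.24 (SE 0.19) and 0.01 (SE 0.14) that were not called. PSPH and SLC7A5 have pseudogene copies of near-identical sequence that were not analysed here, so how reads were shared with those copies adds uncertainty to both genes.

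The mitochondrial one-carbon enzymes SHMT2 and MTHFD2 act in sequence but were not called alike in BL-41. SHMT2 (chromosome 12 from 57229711 to 57234935), the most abundant of the 10 genes per length with scrambled shRNA in each line, went from 25811 to 15041 in BL-41 in the authors' deposited table. This was a fall of 0.78 on the log2 scale (SE 0.14, adjusted p = 4.58e-07, DESeq2). In the deposited tables of the other lines SHMT2 was 10131 and 9684 in Namalwa and 5916 and 5424 in Jiyoye, with log2 fold changes of -0.07 (SE 0.10) and -0.13 (SE 0.11), not called. MTHFD2 (chromosome 2 from 74198615 to 74217565) was called in none of the lines, nor at an unadjusted p under 0.05. Its values in the authors' deposited table were 17754 and 15894 in BL-41, 7198 and 8007 in Namalwa, and 5360 and 5569 in Jiyoye. The 95% intervals of the MTHFD2 log2 fold change were -0.37 to 0.05 for BL-41, -0.07 to 0.38 for Namalwa and -0.20 to 0.31 for Jiyoye. A change in MTHFD2 as large as that of SHMT2 in BL-41 thus lies outside each of these intervals.

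Of the 4 transporters, 3 fell in BL-41, 1 in Jiyoye and 0 in Namalwa (0 at an unadjusted p under 0.05, DESeq2). The share of genes at a mean of 100 or more that fell was 20.7%, 12.8% and 5.76%. SLC7A5, the transport subunit for leucine and other large neutral amino acids (chromosome 16 from 87830023 to 87869507), went from 17632 to 8374 in BL-41 and from 5306 to 3694 in Jiyoye in the authors' deposited table. Its values in the deposited table of Namalwa were 15812 and 15645. SLC7A5 fell by 1.07 in BL-41 (SE 0.16, adjusted p = 1.76e-09, DESeq2). It fell by 0.52 in Jiyoye (SE 0.20, adjusted p = 0.0490, DESeq2), close to the threshold, and had a log2 fold change of -0.02 (SE 0.15) in Namalwa, not called.

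SLC3A2, the heavy chain that SLC7A5 and SLC7A11 need at the cell surface (chromosome 11 from 62856109 to 62888860), was called in none of the lines. Its values in the authors' deposited table were 6506 and 5458 in BL-41, 3991 and 4648 in Namalwa, and 1973 and 2205 in Jiyoye. The log2 fold change was -0.25 in BL-41 (SE 0.13, unadjusted p = 0.0435, adjusted p = 0.122, DESeq2), 0.22 in Namalwa (SE 0.15) and 0.16 in Jiyoye (SE 0.17). Per length, SLC7A5 was 1.19 times SLC3A2 with scrambled and 0.676 times with FOXO3 shRNA in BL-41. The same ratio went from 1.20 to 0.750 in Jiyoye and from 1.78 to 1.52 in Namalwa. The ratios have no spread over libraries and were not tested.

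SLC7A11, the cystine importer (chromosome 4 from 138164097 to 138242349), was the least abundant of the 10 genes per length. It went from 2607 to 1764 in BL-41 in the authors' deposited table and fell by 0.56 (SE 0.21, adjusted p = 0.0255, DESeq2). SLC7A11 values in the deposited tables of Namalwa (564 and 584) and Jiyoye (834 and 941) gave log2 fold changes of 0.05 and 0.17, not called. The SE of SLC7A11 was 0.37 in Namalwa and 0.36 in Jiyoye, against medians over the 10 genes of 0.13 and 0.17, so a fall of the size seen in BL-41 lay inside the Namalwa interval (-0.67 to 0.77) and could not be told from no change there. SLC1A5, the glutamine carrier (chromosome 19 from 46774883 to 46788594), went from 8817 to 6569 in BL-41 in the authors' deposited table and fell by 0.42 (SE 0.11, adjusted p = 0.000968, DESeq2). SLC1A5 was 5663 and 5922 in Namalwa and 4556 and 4419 in Jiyoye in the authors' deposited table, with log2 fold changes of 0.06 (SE 0.12) and -0.04 (SE 0.14), not called.

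**Figure D2:**
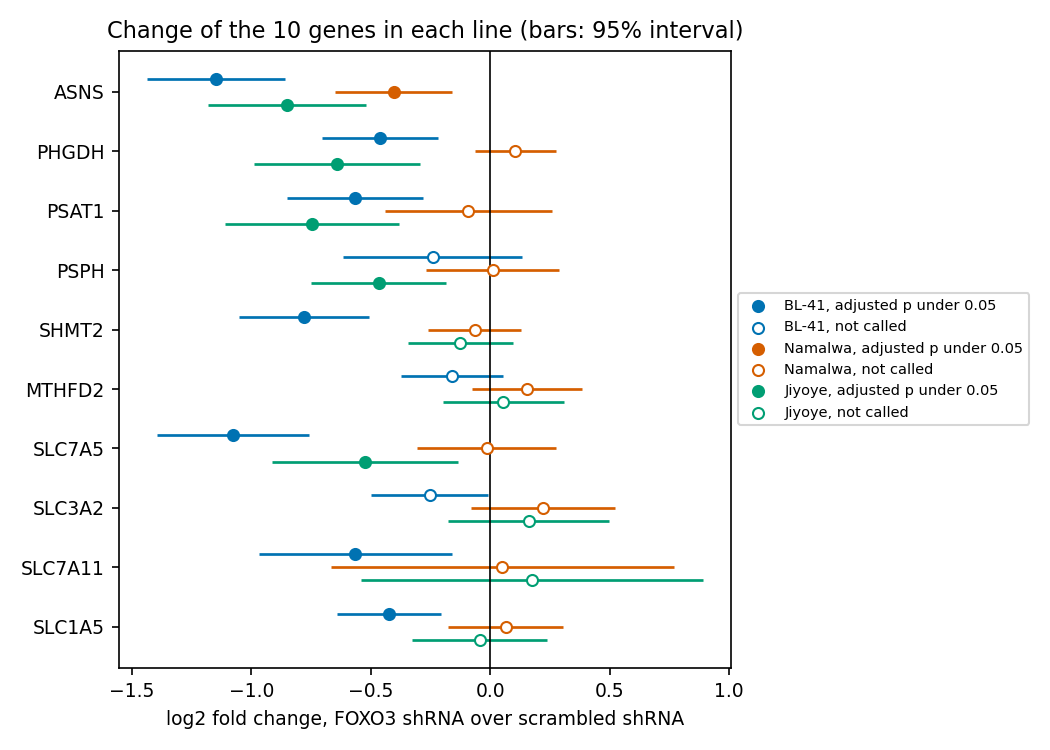
Log2 fold change of each gene (x axis, FOXO3 shRNA over scrambled shRNA) in the 3 lines with its 95% interval, filled where the adjusted p was under 0.05. ASNS is filled in all 3 lines, while MTHFD2 and SLC3A2 are open in all 3.

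Across the lines, 1 gene (ASNS) fell in all 3 lines, 3 (PHGDH, PSAT1 and SLC7A5) in BL-41 and Jiyoye, 4 in 1 line (SHMT2, SLC7A11 and SLC1A5 in BL-41, PSPH in Jiyoye), and 2 (MTHFD2 and SLC3A2) in none. Of the 14549 genes measured in all 3 lines, 1.81% fell in every line, and no such share was taken for the other patterns. Whether the lines differed was tested for each gene with a two-sided z test on the difference of the fold changes, adjusted over all genes in both tables by the Benjamini-Hochberg method, which gave 30 comparisons for the 10 genes. The lines have separate control libraries. At an adjusted p under 0.01 the calls of ASNS in Namalwa, of SLC7A11 in BL-41, and of PSPH and SLC7A5 in Jiyoye were lost, as were the differences of SLC1A5 and, between Namalwa and Jiyoye, of PHGDH.

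Between BL-41 and Namalwa, the fold change of 5 of the 10 genes was lower in BL-41, where 3.00% of all genes were lower and 4.01% higher. The differences were -1.06 for SLC7A5 (SE 0.22, adjusted p = 0.000218), -0.74 for ASNS (SE 0.19, adjusted p = 0.00517), -0.71 for SHMT2 (SE 0.17, adjusted p = 0.00188), -0.57 for PHGDH (SE 0.15, adjusted p = 0.00709) and -0.49 for SLC1A5 (SE 0.17, adjusted p = 0.0463), all from the difference of DESeq2 fold changes. The other 5 were also lower in BL-41, by -0.61 (SLC7A11) to -0.25 (PSPH), and did not pass. The SLC7A11 difference had a wide interval, from -1.44 to 0.21.

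Between BL-41 and Jiyoye, SHMT2 alone passed, with a difference of -0.65 (SE 0.18, adjusted p = 0.00932 over all DESeq2 fold changes), where 3.24% of all genes were lower and 3.01% higher in BL-41. The SLC7A5 difference, -0.55 (95% interval -1.05 to -0.05), had an adjusted p of 0.204 over all genes with the DESeq2 fold changes. For the 3 serine synthesis enzymes the BL-41 fold change was the less negative one, by 0.18 for PHGDH, 0.18 for PSAT1 and 0.23 for PSPH, and none of the 3 passed. The interval of the PHGDH difference ran from -0.24 to 0.60.

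Between Namalwa and Jiyoye, PHGDH alone passed, with a fold change higher in Namalwa by 0.75 (SE 0.20, adjusted p = 0.0117 over all DESeq2 fold changes), where 1.08% of all genes were higher and 1.66% lower in Namalwa. PSAT1 (0.65, interval 0.15 to 1.16) and PSPH (0.48, interval 0.08 to 0.87) differed the same way and did not pass after adjustment (adjusted p = 0.176 and 0.231 over all DESeq2 fold changes). For SHMT2 the difference was 0.06 with an interval from -0.23 to 0.35.

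**Figure D3:**
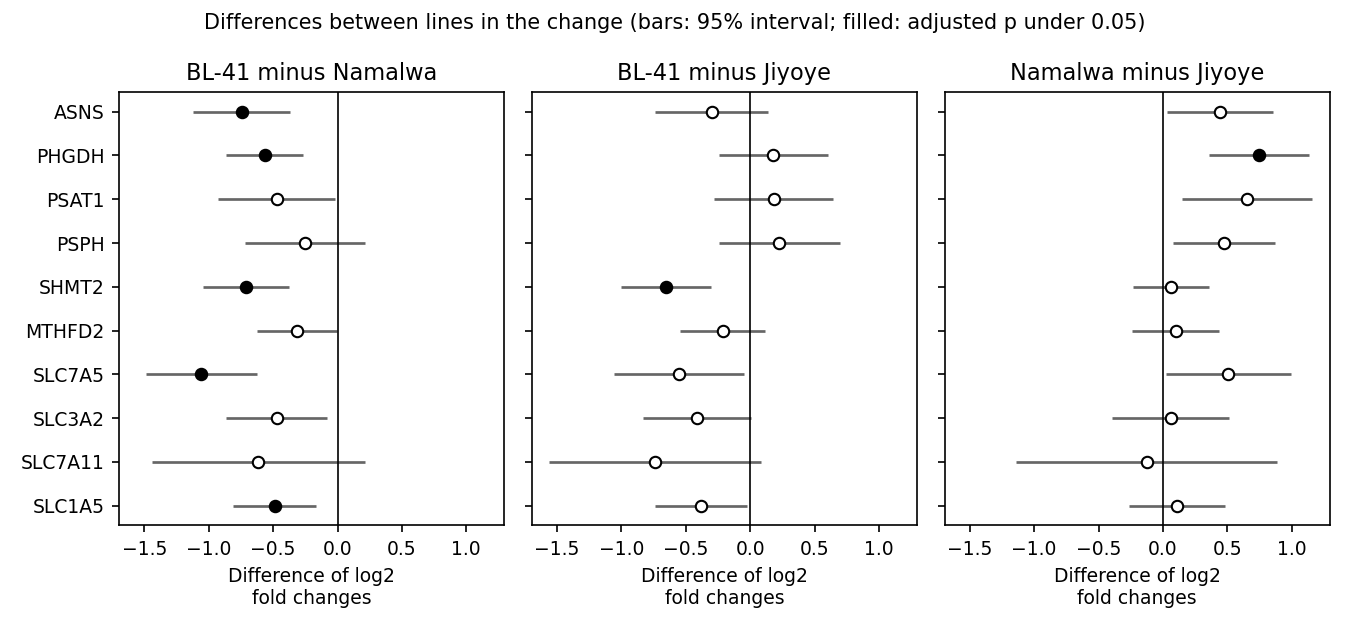
Difference between lines in the log2 fold change of each gene (x axis) with its 95% interval, filled where the adjusted p was under 0.05. In BL-41 minus Namalwa all 10 points lie below 0 and 5 are filled.

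The level of these genes with scrambled shRNA was highest in BL-41 for most of them and lowest in Jiyoye. Levels were compared per length, as the arm value over gene length, scaled so that each table and arm sums to 1000000. The tables were normalized separately and give no spread over libraries, so these levels and their order carry no test. With scrambled shRNA, 8 of the 10 genes had their highest level in BL-41 and 9 their lowest in Jiyoye, and the highest line exceeded the lowest by 1.91-fold (SLC1A5) to 7.01-fold (PSAT1). The share of all genes highest in BL-41 or lowest in Jiyoye was not taken. Whether this order is particular to the 10 genes is therefore not known. The summed length-scaled level of the 10 genes was 5001 for BL-41, 2925 for Namalwa and 1530 for Jiyoye, and with FOXO3 shRNA it was 3117, 2801 and 1230.

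In BL-41 with scrambled shRNA the order of length-scaled levels was SHMT2 (1282), MTHFD2 (905), ASNS (805), PHGDH (494), SLC7A5 (434), SLC3A2 (363), SLC1A5 (356), PSAT1 (283), PSPH (49.5) and SLC7A11 (30.4). SHMT2 ranked within the highest 0.656% of genes there. With FOXO3 shRNA MTHFD2 (763) stood above SHMT2 (704) in BL-41, and ASNS was at 342. In Namalwa SHMT2 (519), ASNS (473) and SLC7A5 (405) led with scrambled shRNA, and in Jiyoye SHMT2, MTHFD2 (281) and ASNS (259) did. PSAT1 was the gene furthest apart between lines, at 320 in Namalwa, 283 in BL-41 and 45.7 in Jiyoye. SLC7A11 was last in each line.

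**Figure D4:**
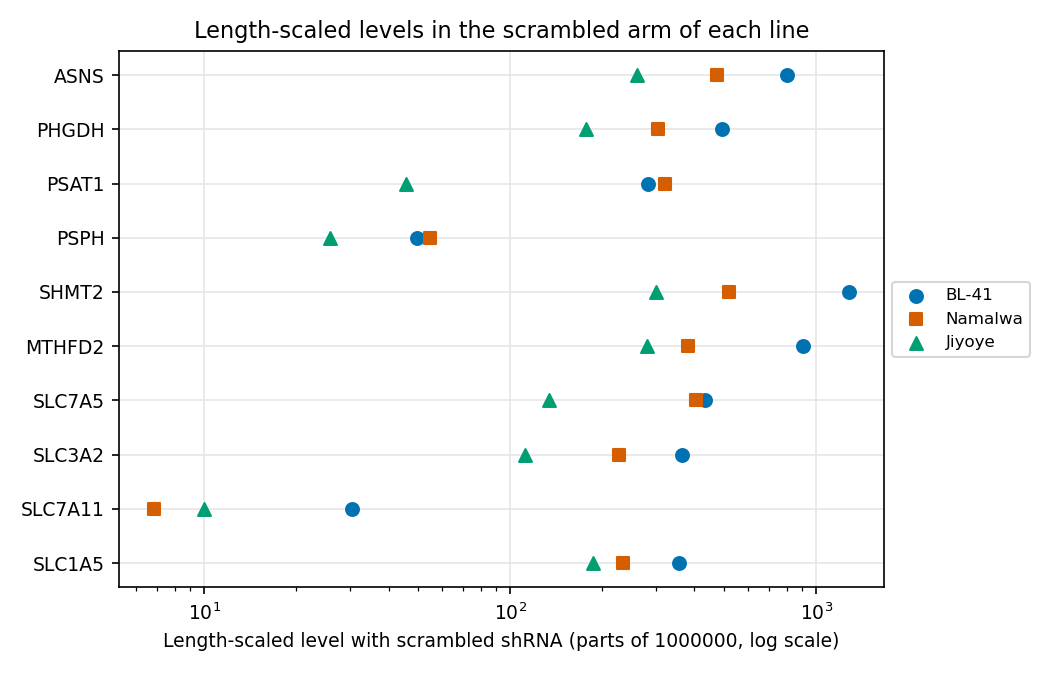
Length-scaled level of each gene with scrambled shRNA (x axis, parts of 1000000, log scale) in BL-41, Namalwa and Jiyoye, 1 value per line. Jiyoye is the lowest of the 3 lines for every gene but SLC7A11, where Namalwa is lower (6.85 against 9.99).

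Other genes of amino acid supply were taken from 5 lists with 105 genes, also chosen with earlier results of these data known. In BL-41 33 of 103 measured genes fell and 8 rose, in Namalwa 7 of 101 fell and 5 rose, and in Jiyoye 13 of 104 fell and 9 rose (DESeq2). The share of list genes that fell was 32.0% in BL-41, beside 14.2% of all genes and 20.7% of those at a mean of 100 or more. It was 6.93% in Namalwa, beside 3.81% and 5.76%, and 12.5% in Jiyoye, beside 8.70% and 12.8%, so in these lines it lay near the share among genes of such a mean. The share that rose was 7.77% for BL-41, 4.95% for Namalwa and 8.65% for Jiyoye, beside 14.5%, 2.60% and 8.69% of all genes. Of the 26 serine, glycine and folate genes, 7 fell and 2 rose in BL-41, 2 of 25 fell and 1 rose in Namalwa, and 5 of 26 fell and 1 rose in Jiyoye, with median log2 fold changes of -0.17, 0.02 and -0.15. Those that fell were 26.9% of the list in BL-41 and 19.2% in Jiyoye, against 14.2% and 8.70% of all genes and 20.7% and 12.8% of those at a mean of 100 or more. The 2 in Namalwa stand beside 3.81% and 5.76%. Those that rose were 7.69%, 4.00% and 3.85% of the list in BL-41, Namalwa and Jiyoye, against 14.5%, 2.60% and 8.69% of all genes. SHMT1, the cytosolic counterpart of SHMT2, fell by 0.95, 0.75 and 0.98 in the deposited tables of BL-41, Namalwa and Jiyoye (adjusted p from 6.07e-07 to 2.03e-05, DESeq2). MTHFD1L, a mitochondrial enzyme that releases formate downstream of MTHFD2, fell by 1.10 in BL-41 in the authors' deposited table (3443 to 1602, adjusted p = 1.30e-11, DESeq2) and was not called in Namalwa (0.14) or Jiyoye (-0.15). CTH, which makes cysteine, fell by 0.77 in BL-41 and by 0.69 in Jiyoye (DESeq2 adjusted p = 6.68e-05 and 0.000367) in the authors' deposited table. SLC25A32, the mitochondrial folate carrier, rose by 0.63, 0.78 and 0.62 in BL-41, Namalwa and Jiyoye (DESeq2 adjusted p from 3.22e-09 to 0.00325) in the authors' deposited table. MTR, methionine synthase, fell by 0.86 in Jiyoye (DESeq2 adjusted p = 4.00e-10) in the authors' deposited table.

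Among 19 measured enzymes of other amino acids, 7 fell and 2 rose in BL-41 and 2 fell and 1 rose in Namalwa. In Jiyoye 4 fell and 0 rose (1 at an unadjusted p under 0.05, DESeq2). Those that fell were 36.8%, 10.5% and 21.1% of the list, against 14.2%, 3.81% and 8.70% of all genes and 20.7%, 5.76% and 12.8% of those at a mean of 100 or more. Those that rose in BL-41 and Namalwa were 10.5% and 5.26%, against 14.5% and 2.60% of all genes. The median log2 fold changes of the list were -0.22, -0.12 and -0.13. ASRGL1, which breaks down asparagine, fell by 1.43 in BL-41 (378 to 141) and by 1.07 in Jiyoye (428 to 204) (DESeq2 adjusted p = 3.38e-11 and 1.02e-06) in the authors' deposited table, and had values of 14.1 and 9.23 in Namalwa. ASL, argininosuccinate lyase, fell by 1.15, 0.67 and 0.58 and BCAT2, a branched-chain aminotransferase, by 0.56, 0.71 and 0.57 in BL-41, Namalwa and Jiyoye (DESeq2 adjusted p from 6.25e-08 to 0.0160) in the authors' deposited table. GPT2, the mitochondrial alanine aminotransferase, fell by 0.70 in BL-41 (DESeq2 adjusted p = 1.09e-06) in the authors' deposited table. ALDH18A1, which starts proline synthesis, rose by 0.35 in BL-41 and by 0.30 in Namalwa (DESeq2 adjusted p = 0.0213 and 0.0189) in the authors' deposited table.

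Other transporters were split in direction, with 5 of 22 falling and 2 rising in BL-41, 2 of 21 falling and 2 rising in Namalwa, and 2 of 23 falling and 2 rising in Jiyoye (medians -0.02, -0.07 and -0.00, DESeq2). For BL-41 the share that fell was 22.7%, beside 14.2% of all genes and 20.7% of those at a mean of 100 or more. For Namalwa it was 9.52%, beside 3.81% and 5.76%, and for Jiyoye 8.70%, beside 8.70% and 12.8%. The Namalwa and Jiyoye shares each rest on 2 genes. Rises made up 9.09% of the list (BL-41), 9.52% (Namalwa) and 8.70% (Jiyoye), where 14.5%, 2.60% and 8.69% of all genes rose. SLC43A1, another carrier of large neutral amino acids, fell by 1.23, 0.58 and 0.87 in BL-41, Namalwa and Jiyoye (DESeq2 adjusted p from 4.59e-05 to 0.00388) in the authors' deposited table. SLC38A5 and SLC43A2 fell by 0.55 and 0.49 in BL-41 (DESeq2 adjusted p = 0.00159 and 0.00166) in the authors' deposited table. SLC36A1, a lysosomal amino acid exporter, rose by 0.64, 0.73 and 0.66 in BL-41, Namalwa and Jiyoye (DESeq2 adjusted p from 8.11e-05 to 0.00395) in the authors' deposited table. SLC7A6, which exchanges basic for neutral amino acids, rose by 0.35 in Namalwa and by 0.59 in Jiyoye (DESeq2 adjusted p = 0.00816 and 7.87e-05) in the authors' deposited table, and had 0.30 in BL-41, not called.

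Of the 20 cytosolic aminoacyl-tRNA synthetases, which load amino acids onto tRNA, 8 fell and 0 rose in BL-41 (3 rising at an unadjusted p under 0.05, DESeq2). In Namalwa 1 fell and 1 rose (2 falling and 7 rising at an unadjusted p under 0.05, DESeq2). In Jiyoye 2 fell and 1 rose (3 falling and 2 rising at an unadjusted p under 0.05, DESeq2). Medians were -0.16 for BL-41, 0.15 for Namalwa and -0.09 for Jiyoye. Those that rose were 0.00%, 5.00% and 5.00% of the list in BL-41, Namalwa and Jiyoye, against 14.5%, 2.60% and 8.69% of all genes. All 20 reached a mean of 100 in every line. In BL-41 40.0% of them fell, against 20.7% of genes with such a mean. The 1 and 2 that fell in Namalwa and Jiyoye stand beside 5.76% and 12.8% of such genes, a share near that of the list. NARS, the asparagine enzyme, fell by 0.62, 0.34 and 0.56 in BL-41, Namalwa and Jiyoye (DESeq2 adjusted p from 9.88e-06 to 0.0460) in the authors' deposited table. SARS (serine) and GARS (glycine) fell by 0.46 and 0.45 in BL-41 (DESeq2 adjusted p = 0.000910 and 0.00167) in the authors' deposited table. YARS (tyrosine) had -0.40 in BL-41 and 0.24 in Namalwa in the authors' deposited table, called in both (adjusted p = 0.00240 and 0.0359, DESeq2). In Jiyoye QARS (glutamine) fell by 0.33 and WARS (tryptophan) rose by 0.42 (DESeq2 adjusted p = 0.0141 and 0.0246) in the authors' deposited table.

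Of the 16 upstream regulators, 6 fell and 2 rose in BL-41. In Namalwa 0 fell and 0 rose (1 falling and 1 rising at an unadjusted p under 0.05, DESeq2), and in Jiyoye 0 fell (1 at an unadjusted p under 0.05, DESeq2) and 5 rose. Their medians were 0.02, 0.06 and 0.21. In BL-41 37.5% fell and 12.5% rose, against 14.2% and 14.5% of all genes, and in Jiyoye 31.2% rose, against 8.69%. The counts of 0 stand beside 3.81% of all genes that fell and 2.60% that rose in Namalwa, and 8.70% that fell in Jiyoye. With 16 genes such counts say little. Of the 16 regulators, 15 had a mean of at least 100 in BL-41, and 20.7% of all such genes fell there. For rises only the share over all genes was taken. TRIB3, a feedback inhibitor of ATF4, and ATF5, a related factor, fell by 0.95 each in BL-41 (DESeq2 adjusted p = 1.02e-07 and 1.07e-09) in the authors' deposited table. EIF2AK2, the RNA-activated kinase PKR, rose by 0.83 in BL-41 and 1.09 in Jiyoye (DESeq2 adjusted p = 4.00e-05 and 1.39e-10) in the authors' deposited table. KEAP1 rose by 0.52 in BL-41 and 0.47 in Jiyoye and CEBPB by 0.70 in Jiyoye (DESeq2 adjusted p from 0.00173 to 0.00533) in the authors' deposited table. ATF4 and MYC, singled out after their values were seen, were 16570 and 17530 (ATF4) and 6674 and 3962 (MYC) in BL-41 in the authors' deposited table. ATF4 messenger RNA was not called in any line (DESeq2 log2 fold changes of 0.08 for BL-41, 0.17 for Namalwa and -0.17 for Jiyoye), and MYC fell in BL-41 (-0.75, adjusted p = 0.000131, DESeq2) and was not called in Namalwa (0.15) or Jiyoye (0.00).

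**Figure D5:**
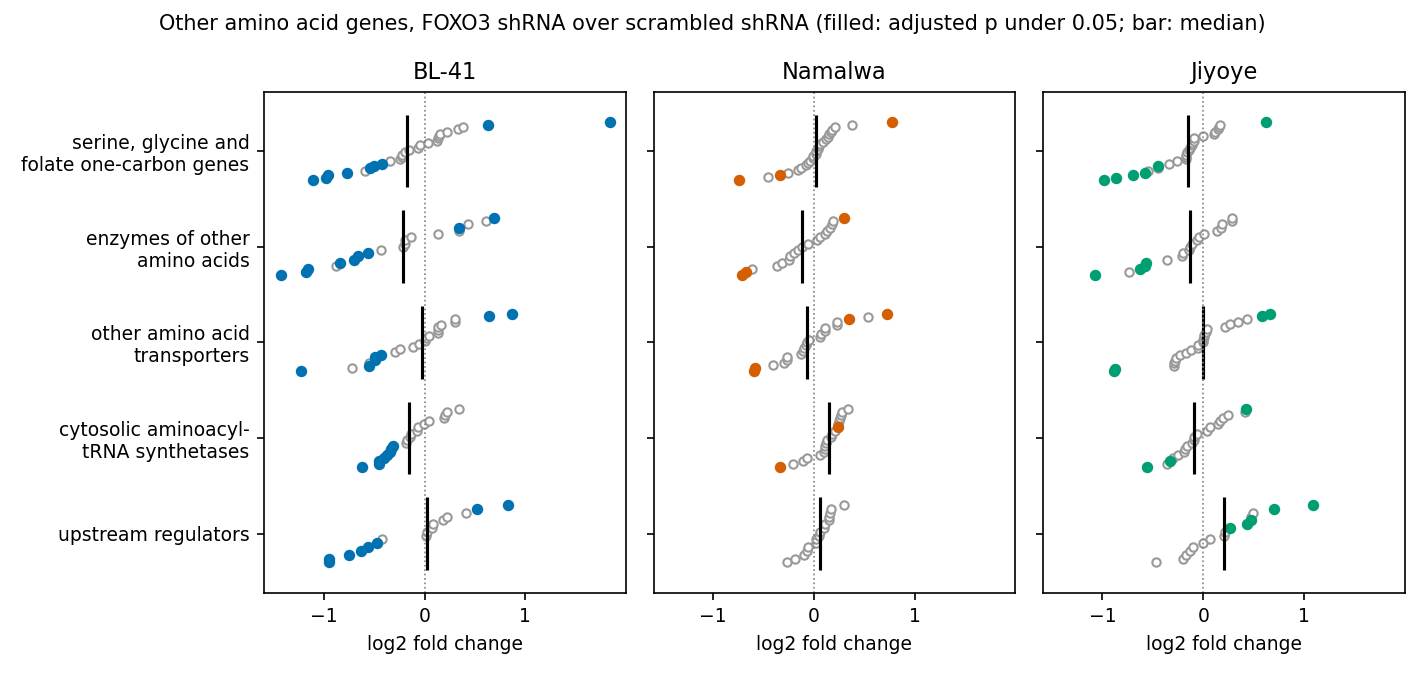
Log2 fold change (x axis) of every measured gene of the 5 lists in the 3 lines, filled where the adjusted p was under 0.05, with a bar at each list's median. BL-41 has the most filled points, and the synthetase median lies at -0.16 in BL-41 and 0.15 in Namalwa.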

How the data were processed

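Messenger RNA of 18 libraries, 3 in each of 6 groups, was compared within BL-41, Namalwa and Jiyoye. Filtering of reads used SOAPnuke according to the series' design text. Bowtie2, RSEM, DESeq2 and the hg38 build appear in the submitters' processing notes, and their versions are not given in the sources used here. For each line the authors deposited 1 signal value per arm, which they normalized, with gene length in bases. The log2 fold change, p-value and adjusted p-value are also the ones the authors deposited, from DESeq2. The log2 ratio of the arm values equals that fold change within 1e-10, so the values carry its moderation towards 0. There is no value per library in these tables, so an SD or the depth of each library is not given, a planned count test was not run, and the authors' calls at an adjusted p under 0.05 were used.

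Each SE was recovered from the fold change and its p by a normal quantile, and intervals are nominal 95% intervals. They are centred on moderated fold changes, so their true coverage is not known. The z test between lines used these SE over 14789, 15419 and 14933 genes, and was tested on simulated data. Each line was compared on its own, and the z test makes no allowance for moderation that differs between lines. The simulated noise was drawn with the same SE, so this could not check whether the recovered SE are right. Length-scaled levels are arm values per base of gene length, scaled to sum to 1000000. The 10 genes and the 5 lists were chosen with earlier results of these data known. Named genes are FOXO3, the 10 genes, and, per list and line, up to 3 called genes with the smallest adjusted p and a mean of at least 100. A gene so named is not reported here. Alternatives were a minimum mean of 10 or 100, an adjusted p under 0.01, fold changes of 0.5 or more in size on the log2 scale, and fold changes centred on the median. Positions and promoters are those of RefSeq GRCh38.p14. Software was matplotlib 3.10.9, scipy 1.17.1, pandas 2.3.3 and numpy 2.4.6 under Python 3.11.15.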

Additional observations from a re-analysis of the deposited data

Results flagged for a closer look

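The response to FOXO3 shRNA differed between lines for 5 of the 10 genes in 1 or more pairs of lines, by the z test on the difference of the log2 fold changes. BL-41 had the lower fold change than Namalwa for ASNS (-0.74), PHGDH (-0.57), SHMT2 (-0.71), SLC7A5 (-1.06) and SLC1A5 (-0.49). BL-41 had the lower fold change than Jiyoye for SHMT2 (-0.65), and Namalwa the higher one than Jiyoye for PHGDH (0.75). The log2 fold change of FOXO3 itself was -0.79 for BL-41, -1.09 for Namalwa and -0.30 for Jiyoye, and its relation to these differences was not tested.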

How the results depend on the processing

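Recomputing under the alternatives left the direction and the call of each of the 10 genes in each line as reported, both among genes at a mean of 100 or more and with centred fold changes. Of the recomputed counts past the threshold, 58 stayed within 1.5 times the reported one and 11 did not. The 58 include the counts of 0 members that rose, which stricter thresholds could not have changed. They also include the drop from 7 to 5 members that fell in BL-41 at a size of 0.5, where PHGDH and SLC1A5 were lost. At an adjusted p under 0.01 the members that fell were 0 in Namalwa and 3 in Jiyoye, the other pathway genes that fell were 4 in Namalwa and 7 in Jiyoye, those that rose in Namalwa were 3, and 0 members differed between Namalwa and Jiyoye. Where the log2 fold change also had to reach 0.5 in size, 0 members fell in Namalwa, other pathway genes that fell in BL-41 came to 21, and those that rose came to 2 in Namalwa and 5 in Jiyoye. With only genes at a mean of 100 or more tested, 8 other pathway genes rose in Namalwa. No paired analysis was possible because the tables hold 1 value per arm, so the replicate number could not enter a fit. For the same reason, leaving out 1 library at a time was not run. Moderated fold changes understate the change of genes with few reads.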

Other observations

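Some other genes of amino acid supply moved the same way in all 3 lines. Of the 101 list genes present in all 3 tables, 5 fell in every line by the authors' DESeq2 test (ASL, BCAT2, NARS, SHMT1 and SLC43A1) and 2 rose in every line (SLC25A32 and SLC36A1). Over all 14549 genes present in the 3 tables, 1.81% fell and 1.48% rose in every line.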
